A study of Mus musculus with 3 samples.

Results

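The cell cycle genes described here are 33 genes whose transcripts accumulate in dividing cells, out of 24106 genes with a symbol in the data. They were chosen by name, as commonly used proliferation markers, and were divided by role into 11 genes of DNA replication and 22 genes of mitosis. All 33 were found. Polyadenylated RNA was sequenced from flow-sorted cells of the villus fraction of the C57BL/6 upper small intestine in 3 libraries, 1 for each group, and each library pooled equal amounts of individual RNA samples. GIP-GFP held cells isolated by green fluorescence from a reporter mouse for the incretin hormone GIP. Ngn3-TOMATO held tomato-positive epithelial cells of male mice that carried Ngn3-Cre and a ROSA26 loxP-stop-loxP tomato allele, so that a cell was marked if it or a progenitor had expressed Neurogenin 3. Ngn3-negative held the tomato-negative epithelial cells of the same cross, which the series describes as enterocytes, goblet cells and Paneth cells. Both tomato sorts excluded cells stained for CD45, and no such gate is stated for GIP-GFP. Neither the age of the mice nor the number of samples in a pool was stated.

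In the intestine, cells divide in the crypts, where stem cells and their transit-amplifying daughters renew the epithelium, and they stop dividing as they move onto the villus. Enteroendocrine cells arise from progenitors that switch on Neurogenin 3 and leave the cycle as they differentiate. A dividing cell first makes the machinery that licenses and copies DNA, then the cyclins, kinases, motors and checkpoint proteins of mitosis. E2F factors control many genes of replication, and the DREAM and MYBL2-FOXM1 complexes control many genes of mitosis.

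With 1 library in each group, no difference has a replicate check and no p-value is given. Levels are in scaled FPKM, which is the deposited FPKM summed over the transcripts of a gene and divided by 1 number common to all libraries. By its name FPKM is fragments scaled for transcript length and for library size, but the library term of the deposited values is unknown. Differences are log2 ratios of levels with a pseudocount of 1, a scale that understates the difference of low genes. The interval in parentheses is a 95% counting interval, which covers read counting within these libraries and not the variation between mice or sorts. Sequence on the listed transcripts came to 592 Mb for GIP-GFP and 1380 Mb for Ngn3-TOMATO, against 1029.7 Mb for Ngn3-negative. The median cell cycle gene was read to a depth of 3.54 reads per base in GIP-GFP and 10.7 in Ngn3-TOMATO, against 22.1 in Ngn3-negative. Gip took 23.2% of the summed level in GIP-GFP and 2.63% in Ngn3-TOMATO, against 0.0810% in Ngn3-negative. The 12 enteroendocrine markers examined were all detected, and 11 of them in GIP-GFP and 12 in Ngn3-TOMATO were at least 2-fold above Ngn3-negative. Of all genes, 21.1% in GIP-GFP and 19.2% in Ngn3-TOMATO were. The marker short of 2-fold in GIP-GFP was Tph1, at a log2 ratio of 0.35.

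The 2 genes that mark cycling cells most plainly were detected in all 3 libraries. Top2a encodes the topoisomerase that untangles sister chromosomes, and it stood at 31.7 in GIP-GFP and 38.4 in Ngn3-TOMATO, against 118 in Ngn3-negative (main transcript on chromosome 11, 98992947 to 99024189, mm10). Birc5 encodes survivin, a subunit of the chromosomal passenger complex, and it stood at 29.2 in GIP-GFP and 35.5 in Ngn3-TOMATO, against 111 in Ngn3-negative (chromosome 11, 117849237 to 117855743). Both reporter-positive sorts were therefore below Ngn3-negative and well above 0. Summed over the 33 genes, the level was 499 in GIP-GFP and 621 in Ngn3-TOMATO, against 1770.3 in Ngn3-negative. These sums made up 0.0480% of all gene levels in GIP-GFP and 0.0585% in Ngn3-TOMATO, against 0.197% in Ngn3-negative. In a pooled library, fewer dividing cells and less of these transcripts per dividing cell cannot be told apart. Which cells of a sort held these transcripts, marked or unmarked, was not tested.

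The promoters of the genes of each role are shown as a description of sequence. Whether they relate to the lower levels in the reporter-positive sorts was not tested. RefSeq promoter windows (GRCm38.p6, 250 bases before to 50 after the start) were matched for 27 of the 33 genes, 10 of replication and 17 of mitosis. Each window was searched on both strands for CCAAT, the word bound by NF-Y, for the cell cycle genes homology region (CHR, searched as TTTGAA and TTCGAA), which the DREAM and MYBL2-FOXM1 complexes bind, and for an E2F word (TTTCCCGC, TTTGGCGC, TTTCGCGC or TTTGCCGC). The windows of Mcm5 and Mcm6 (replication) and of Ccnb2, Cdc20, Cdk1 and Top2a (mitosis) are printed from 160 bases before to 20 after the start, 5′ to 3′ on the gene's strand, with every such word in capitals on whichever strand it reads. The TTTGAA word reads TTCAAA and CCAAT reads ATTGG when they lie on the other strand, and E2F words may overlap each other.
Mcm5, chr8:75109349-75109528, plus strand: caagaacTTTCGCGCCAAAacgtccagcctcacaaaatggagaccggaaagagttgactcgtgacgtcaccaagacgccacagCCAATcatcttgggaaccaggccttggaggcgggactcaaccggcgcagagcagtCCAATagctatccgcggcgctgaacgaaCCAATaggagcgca
Mcm6, chr1:128359686-128359865, minus strand: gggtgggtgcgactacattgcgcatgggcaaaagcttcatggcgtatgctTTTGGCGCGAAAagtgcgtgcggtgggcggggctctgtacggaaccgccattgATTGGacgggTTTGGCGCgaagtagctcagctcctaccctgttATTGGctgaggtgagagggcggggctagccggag
Ccnb2, chr9:70421535-70421714, minus strand: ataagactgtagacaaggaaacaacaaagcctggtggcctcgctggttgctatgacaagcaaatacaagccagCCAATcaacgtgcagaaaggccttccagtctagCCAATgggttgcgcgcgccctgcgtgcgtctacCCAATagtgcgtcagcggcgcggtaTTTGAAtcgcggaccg
Cdc20, chr4:118437324-118437503, minus strand: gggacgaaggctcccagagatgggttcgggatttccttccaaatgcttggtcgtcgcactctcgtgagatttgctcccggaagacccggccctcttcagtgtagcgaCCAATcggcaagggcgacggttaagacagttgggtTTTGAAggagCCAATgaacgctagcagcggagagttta
Cdk1, chr10:69352893-69353072, minus strand: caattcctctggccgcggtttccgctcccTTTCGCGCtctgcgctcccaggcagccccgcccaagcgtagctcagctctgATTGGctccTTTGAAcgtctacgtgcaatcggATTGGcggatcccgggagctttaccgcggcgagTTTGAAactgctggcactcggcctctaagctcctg
Top2a, chr11:99024170-99024349, minus strand: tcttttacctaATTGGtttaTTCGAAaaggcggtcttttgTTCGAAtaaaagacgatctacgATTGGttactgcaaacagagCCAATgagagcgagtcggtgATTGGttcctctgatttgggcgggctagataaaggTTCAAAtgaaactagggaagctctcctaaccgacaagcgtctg

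The printed window of Mcm6 holds 3 E2F words and 2 CCAAT words and no CHR word, and that of Mcm5 holds 2 E2F words that overlap and 3 CCAAT words. The Ccnb2 window holds 3 CCAAT words followed by 1 CHR word just after the start, and in Cdc20 the CHR word stands between 2 CCAAT words. Cdk1 carries all 3 kinds, and Top2a carries 3 CHR and 4 CCAAT words. Over the full windows, a CHR word was present in 13 of 17 mitosis genes (76.5%) and 2 of 10 replication genes, Mcm2 and Mcm7. It was present in 16.4% of the 10857 promoter-matched genes at 1 scaled FPKM or more in any library, and in 21.7% of all 27025 genes with a window. An E2F word was present in 4 of 10 replication genes (Mcm3, Mcm5, Mcm6 and Mcm7) and in 1 of 17 mitosis genes (Cdk1), against 4.48% of the measured genes and 2.60% of all genes. CCAAT was present in 23 of the 27 and in 42.6% of measured genes and 41.1% of all genes, and 16 of the 27 held more than 1, against 16.1% of measured genes. The median GC content of the windows was 57.7% in the 27 and 60.3% in the measured genes. A match of letters is a description of the sequence and not evidence of binding.

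**Figure D1:**
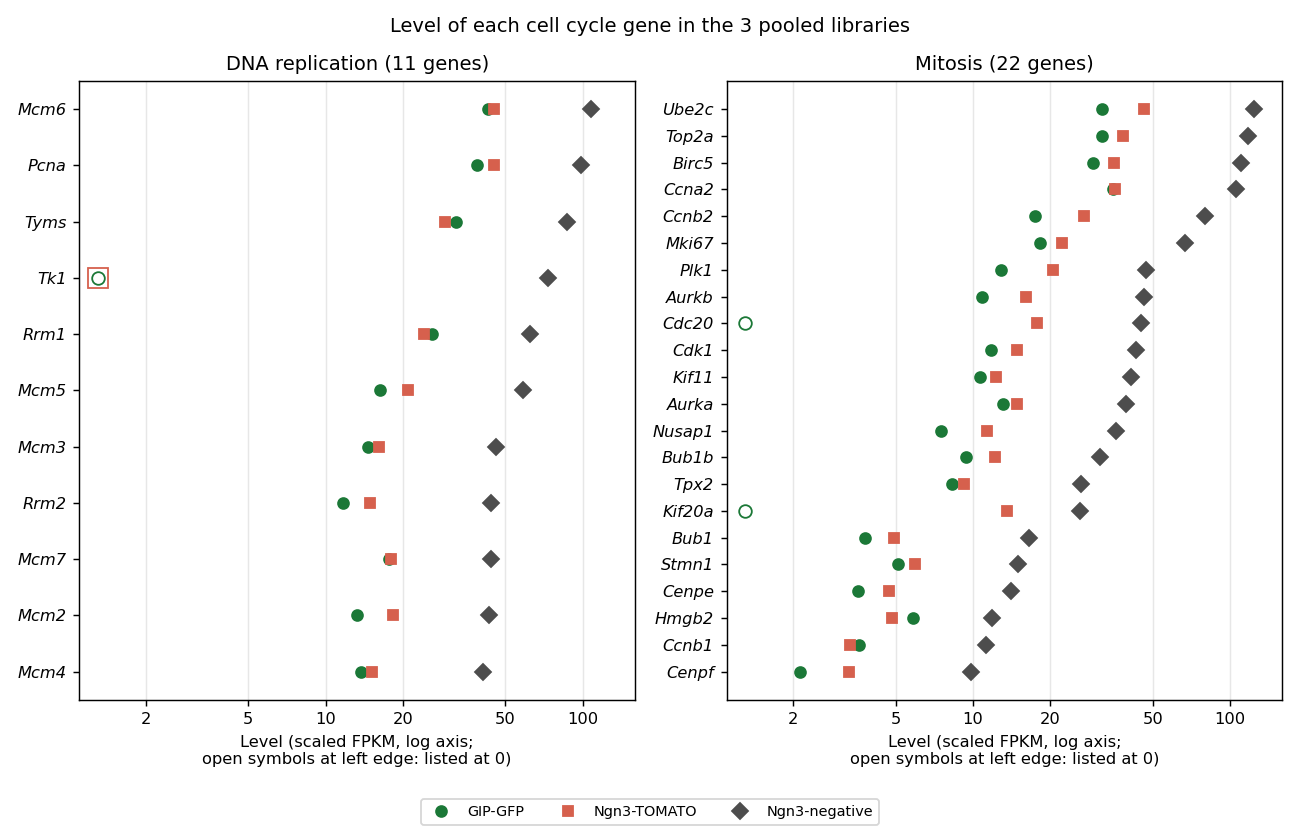
Level of each of the 11 replication and 22 mitosis genes in scaled FPKM on a log axis, 1 point per library (green circle GIP-GFP, red square Ngn3-TOMATO, grey diamond Ngn3-negative). Every grey diamond lies to the right of both other symbols, and the open symbols mark Tk1, Cdc20 and Kif20a where they were listed at 0.

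Among the replication genes, the 6 subunits of the MCM helicase, which is loaded onto origins and unwinds DNA, had similar levels within a library except for Mcm6. Mcm6 (chromosome 1, 128331591 to 128359656) was the highest, at 42.8 in GIP-GFP and 45.1 in Ngn3-TOMATO, against 108 in Ngn3-negative. Mcm2 stood at 13.2 in GIP-GFP and 18.2 in Ngn3-TOMATO, against 43.0 in Ngn3-negative, and Mcm5 at 16.3 in GIP-GFP and 20.9 in Ngn3-TOMATO, against 58.9 in Ngn3-negative. The other subunits, Mcm3, Mcm4 and Mcm7, ranged from 13.8 to 17.6 in GIP-GFP and from 15.2 to 18.0 in Ngn3-TOMATO, against 40.9 to 46.2 in Ngn3-negative. The ranges of the 6 subunits overlapped between the reporter-positive sorts, and Mcm6 alone in those sorts reached the level of the lowest subunit in Ngn3-negative.

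Pcna, the sliding clamp that holds DNA polymerase on its template (chromosome 2, 132249286 to 132253180), stood at 38.8 in GIP-GFP and 45.1 in Ngn3-TOMATO, against 98.4 in Ngn3-negative. Tyms encodes thymidylate synthase, which makes the thymidine nucleotide, and stood at 32.1 in GIP-GFP and 29.1 in Ngn3-TOMATO, against 86.6 in Ngn3-negative. Most of that level, 28.4 in GIP-GFP and 25.4 in Ngn3-TOMATO, against 78.1 in Ngn3-negative, came from a single short transcript model of 615 bases. Of the subunits of ribonucleotide reductase, which supplies deoxynucleotides, Rrm1 stood at 26.0 in GIP-GFP and 24.2 in Ngn3-TOMATO, against 62.5 in Ngn3-negative, and the S phase subunit gene Rrm2 at 11.7 in GIP-GFP and 14.9 in Ngn3-TOMATO, against 44.1 in Ngn3-negative. Tk1, thymidine kinase of the salvage pathway, was listed at 0 in both reporter-positive sorts and at 73.1 in Ngn3-negative.

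Among the mitosis genes, Ube2c, the ubiquitin-conjugating enzyme that serves the anaphase-promoting complex, stood at 31.6 in GIP-GFP and 46.2 in Ngn3-TOMATO, against 124 in Ngn3-negative. It was the highest mitosis gene in Ngn3-TOMATO and in Ngn3-negative, while Ccna2 and Top2a stood above it in GIP-GFP. The cyclin genes differed in level. Ccna2, the cyclin of S and G2 phase, stood at 35.1 in GIP-GFP and 35.7 in Ngn3-TOMATO, against 105 in Ngn3-negative, and the mitotic cyclin gene Ccnb2 at 17.4 in GIP-GFP and 26.9 in Ngn3-TOMATO, against 79.9 in Ngn3-negative. Ccnb1 was much lower, at 3.59 in GIP-GFP and 3.32 in Ngn3-TOMATO, against 11.2 in Ngn3-negative, and their kinase partner Cdk1 stood at 11.8 in GIP-GFP and 14.9 in Ngn3-TOMATO, against 43.1 in Ngn3-negative. GIP-GFP and Ngn3-TOMATO were thus nearly equal for Ccna2 and Ccnb1, whereas Ccnb2 was lower in GIP-GFP.

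The mitotic kinase genes showed the same order of sorts. Plk1, polo-like kinase, stood at 12.8 in GIP-GFP and 20.4 in Ngn3-TOMATO, against 47.1 in Ngn3-negative. Aurkb, the kinase of the chromosomal passenger complex, stood at 10.9 in GIP-GFP and 16.0 in Ngn3-TOMATO, against 46.1 in Ngn3-negative, and Aurka, the kinase of the spindle poles, at 13.1 in GIP-GFP and 14.8 in Ngn3-TOMATO, against 39.5 in Ngn3-negative. Each was highest in Ngn3-negative and lowest in GIP-GFP. The spindle checkpoint kinase gene Bub1 stood at 3.79 in GIP-GFP and 4.91 in Ngn3-TOMATO, against 16.5 in Ngn3-negative, and its relative Bub1b at 9.41 in GIP-GFP and 12.2 in Ngn3-TOMATO, against 31.1 in Ngn3-negative. Cdc20, the activator of the anaphase-promoting complex, was listed at 0 in GIP-GFP and stood at 17.7 in Ngn3-TOMATO, against 45.2 in Ngn3-negative.

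Of the motor and spindle genes, Kif11, the motor that separates the poles, stood at 10.7 in GIP-GFP and 12.3 in Ngn3-TOMATO, against 41.1 in Ngn3-negative. Nusap1, a microtubule-bundling protein, stood at 7.52 in GIP-GFP and 11.3 in Ngn3-TOMATO, against 35.9 in Ngn3-negative, and Tpx2, which activates Aurora A on the spindle, at 8.32 in GIP-GFP and 9.20 in Ngn3-TOMATO, against 26.4 in Ngn3-negative. Kif20a, a motor of cytokinesis, was listed at 0 in GIP-GFP and stood at 13.6 in Ngn3-TOMATO, against 26.1 in Ngn3-negative. The kinetochore genes Cenpf and Cenpe were low throughout. Cenpf stood at 2.12 in GIP-GFP and 3.30 in Ngn3-TOMATO, against 9.83 in Ngn3-negative, and Cenpe at 3.57 in GIP-GFP and 4.73 in Ngn3-TOMATO, against 14.0 in Ngn3-negative. Mki67, which coats mitotic chromosomes and is the standard antigen of cycling cells (chromosome 7, 135689788 to 135716379), stood at 18.3 in GIP-GFP and 22.1 in Ngn3-TOMATO, against 67.0 in Ngn3-negative. Hmgb2, a chromatin protein, and Stmn1, which destabilises microtubules, were also low, with Hmgb2 at 5.83 in GIP-GFP and 4.85 in Ngn3-TOMATO, against 11.9 in Ngn3-negative. Stmn1 stood at 5.12 in GIP-GFP and 5.95 in Ngn3-TOMATO, and its log2 ratios to Ngn3-negative were -1.38 and -1.20.

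Read assignment limits some of these levels. All 3 genes listed at 0 in a reporter-positive sort overlap transcripts of another gene on the opposite strand. Tk1 overlaps Afmid and Gm20708, which were listed at 0 in every library, Cdc20 overlaps Elovl1, and Kif20a overlaps Brd8 and Cdc23. A listed 0 can be a failed estimate rather than an absence of reads, and no fold is given for these. Such an overlap did not always go with a listed 0. Ccna2 overlaps Exosc9 and Nusap1 overlaps Oip5 on the opposite strand, and both genes were detected in every library. Gapdh, a glycolytic gene used by every cell that has many processed copies in the mouse genome, was listed at 0.434 in GIP-GFP and 0.404 in Ngn3-TOMATO, against 0.898 in Ngn3-negative. Whether near-identical copies took reads from any cell cycle gene was not tested. Plk1 shares its 3′ end with a transcript model of Dctn5 that was at 61.3 in Ngn3-TOMATO and was listed at 0 in GIP-GFP and Ngn3-negative. The split between transcripts of 1 gene was also unstable. Tpx2 reads went to different transcript models in GIP-GFP and in Ngn3-negative, and Mcm5 was given to 1 model in GIP-GFP and to 2 in each of the other libraries, so only sums per gene are compared.

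GIP-GFP was set against Ngn3-negative to describe how the GIP sort compares with tomato-negative epithelium in transcripts of division. These 2 sorts came from different mouse lines. GIP-GFP was lower for all 33 genes and at least 2-fold lower for 32, including Tk1, Cdc20 and Kif20a at a listed 0. Of all 13436 genes measured (at 1 scaled FPKM or more in either library), 13.8% were at least 2-fold lower. The exception was Hmgb2, at a log2 ratio of -0.92 (-1.20 to -0.64). The median log2 ratio was -1.79 over the 33 and -1.67 over the 30 not listed at 0, against 0.07 over all genes. Mitosis genes had a median of -1.81 and replication genes of -1.50.

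The lowest mitosis genes in GIP-GFP relative to Ngn3-negative, apart from those at 0, were Ccnb2, with a log2 ratio of -2.14 (-2.36 to -1.91), Nusap1, with -2.11 (-2.34 to -1.89), and Aurkb, with -1.99 (-2.24 to -1.74). Without a pseudocount, the Ngn3-negative level was 4.59 times that of GIP-GFP for Ccnb2, 4.77 times for Nusap1 and 4.65 times for Cenpf. Among replication genes the ratio was nearest to 0 for Rrm1, at -1.23 (-1.35 to -1.12), Mcm7, at -1.28 (-1.46 to -1.10), and Mcm6 and Pcna, both at -1.32. Rrm2 was the lowest replication gene not listed at 0, at -1.83 (-2.06 to -1.60). The interquartile range ran from -1.87 to -1.50 over the 33 genes, and over all genes from -0.54 to 0.79.

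Ngn3-TOMATO against Ngn3-negative compares the marked lineage with the other epithelial cells of the same cross. All 33 genes were lower in Ngn3-TOMATO, 32 of them at least 2-fold, while 9.94% of the 13414 genes measured were at least 2-fold lower. With the libraries scaled to equal totals, 33 of 33 and 14.6% were. Of all genes at least 2-fold apart, 65.9% were higher in Ngn3-TOMATO, and 53.3% with equal totals. The gene short of 2-fold was Kif20a, at -0.89 (-1.02 to -0.76). The genes kept nearly 1 proportion to each other: the interquartile range of the log2 ratio ran from -1.54 to -1.29, and without a pseudocount the Ngn3-negative level was 1.92 times (Kif20a) to 3.39 times (Ccnb1) that of Ngn3-TOMATO over the 32 genes not listed at 0. For all genes it ran from -0.46 to 0.68.

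In this comparison the median was -1.45 for mitosis genes and -1.37 for replication genes. Kif11 had -1.66 (-1.76 to -1.56), Birc5 -1.61 (-1.77 to -1.46), Top2a -1.59 (-1.67 to -1.52) and Mki67 -1.56 (-1.61 to -1.51). At the other end, after Kif20a, were Pcna, with -1.11 (-1.23 to -0.98), Hmgb2, with -1.14 (-1.36 to -0.92), and Plk1, with -1.16. Both comparisons use the Ngn3-negative library, and the next uses the other library of each, so the values of a gene across comparisons are not independent.

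**Figure D2:**
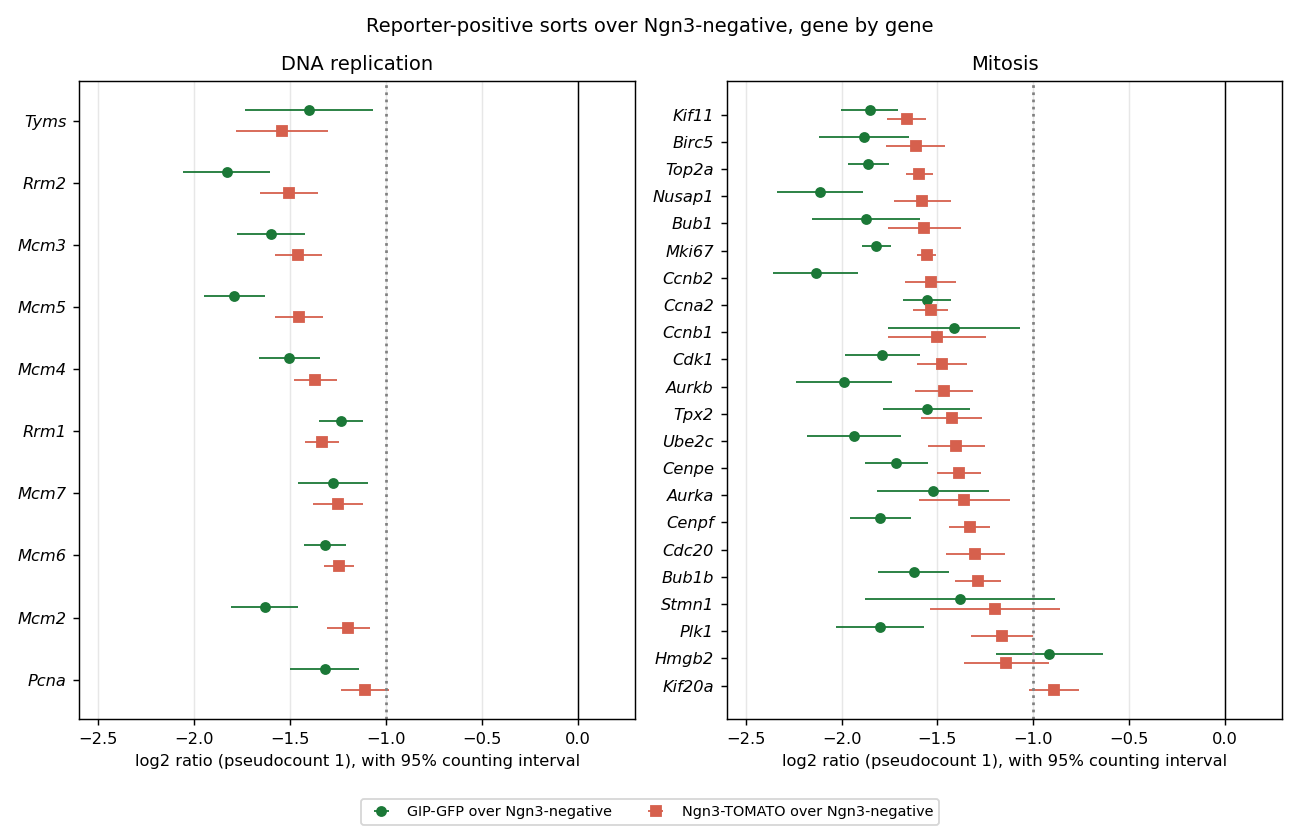
Log2 ratio of GIP-GFP (green circles) and of Ngn3-TOMATO (red squares) over Ngn3-negative for each gene, with 95% counting intervals; the dotted line marks a 2-fold lower level, and values of genes listed at 0 are left out (Tk1 in both, Cdc20 and Kif20a in GIP-GFP). The red squares lie in a narrow band from -1.66 to -0.89, and most green circles of the mitosis panel lie to their left.

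GIP-GFP against Ngn3-TOMATO asks whether the GIP sort differs from the lineage as a whole. These sorts also came from different mouse lines, and exclusion of cells stained for CD45 is stated only for Ngn3-TOMATO. Replication genes were at similar levels in the 2 sorts, and many mitosis genes were lower in GIP-GFP. The median log2 ratio was -0.31 over 22 mitosis genes (-0.29 without Cdc20 and Kif20a) and -0.14 over the 10 replication genes measured, against 0.08 over all 13705 genes. Of the 32 members, 2 were at least 2-fold lower, and these were Cdc20 and Kif20a at a listed 0. At least 2-fold lower levels were found for 8.77% of all genes, and none of the 32 was at least 2-fold higher, against 8.04% of all genes. The counting interval lay wholly below 0 for 16 of 22 mitosis genes and 4 of 10 replication genes, against 28.0% of all genes. The 16 include Cdc20 and Kif20a, whose listed 0 in GIP-GFP can be a failed estimate, so their intervals carry little weight. The counting interval lay wholly above 0 for none of the 32, against 39.0% of all genes. The difference between the 2 roles has no test, since each sort is 1 library.

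Apart from those at a listed 0, the mitosis genes lowest in GIP-GFP relative to Ngn3-TOMATO were Plk1, Ccnb2, Nusap1, Ube2c and Aurkb. Plk1 had a log2 ratio of -0.64 (-0.89 to -0.38) and Ccnb2 of -0.60 (-0.84 to -0.36). Nusap1 and Ube2c both had -0.53, and Aurkb had -0.52 (-0.79 to -0.26). Ccnb1, at 0.09 (-0.28 to 0.46), and Aurka, at -0.16 (-0.41 to 0.09), lay nearer to 0. The highest gene of each role was Hmgb2 for mitosis, at 0.22 (-0.07 to 0.52), and Tyms for replication, at 0.14 (-0.23 to 0.50). Mki67 had -0.26 (-0.34 to -0.18) and Top2a -0.27 (-0.38 to -0.15). Ccna2, at -0.02 (-0.16 to 0.12), and Tpx2, at -0.13 (-0.37 to 0.11), had intervals that include 0. Replication genes with intervals below 0 were Mcm2, at -0.44 (-0.62 to -0.25), Mcm5, at -0.34 (-0.51 to -0.16) but 0.70 with its most abundant transcript alone, Rrm2, at -0.32 (-0.57 to -0.08), and Pcna, at -0.21 (-0.40 to -0.02). Mcm7, at -0.03 (-0.23 to 0.16), Mcm6, at -0.07 (-0.19 to 0.04), and Rrm1, at 0.10 (-0.03 to 0.22), lay near 0.

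**Figure D3:**
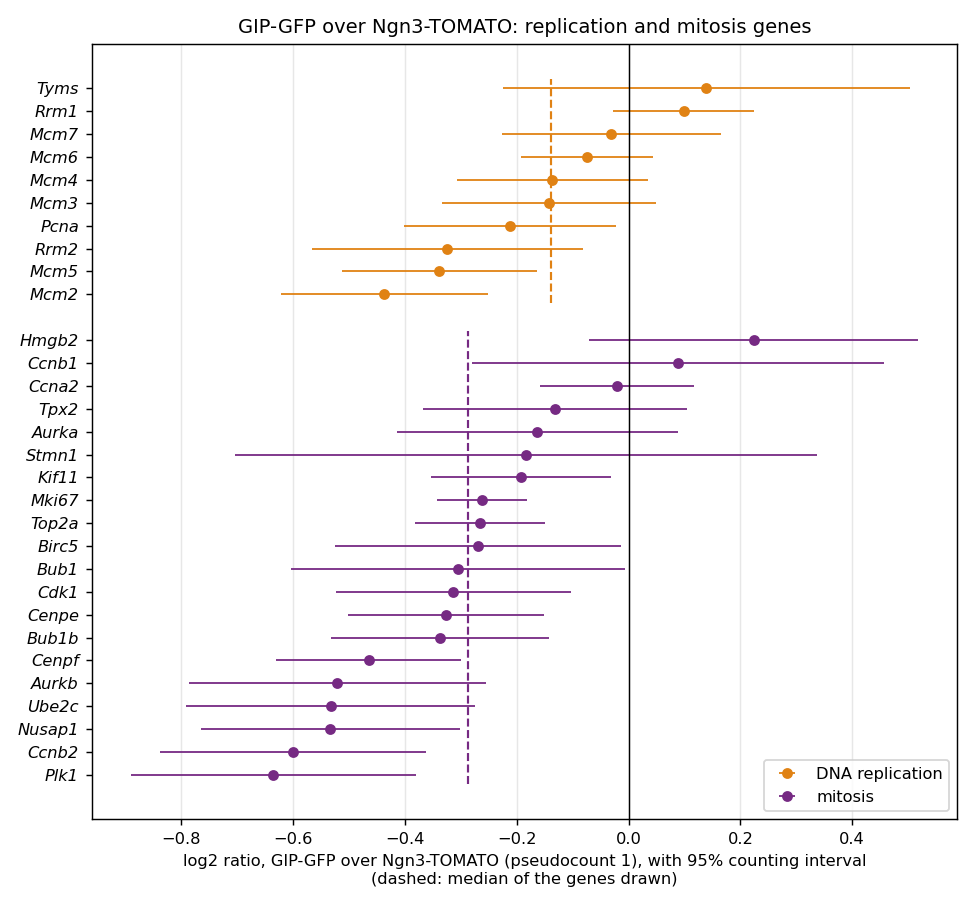
Log2 ratio of GIP-GFP over Ngn3-TOMATO for 10 replication genes (orange) and 20 mitosis genes (purple), with 95% counting intervals and the median of the drawn genes as a dashed line; Tk1, Cdc20 and Kif20a are left out because they were listed at 0. The replication median lies at -0.14 and the mitosis median at -0.29, and Plk1, at -0.64, is the lowest.

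Within a library the 2 roles can be set against each other. Replication genes summed to 227 scaled FPKM in GIP-GFP and 247 in Ngn3-TOMATO, against 706 in Ngn3-negative. Mitosis genes summed to 272 in GIP-GFP and 374 in Ngn3-TOMATO, against 1064 in Ngn3-negative. The ratio of the sums was 0.834 (counting interval 0.787 to 0.882) in GIP-GFP and 0.660 (0.638 to 0.682) in Ngn3-TOMATO, against 0.663 (0.648 to 0.679) in Ngn3-negative. Leaving Tk1, Cdc20 and Kif20a out of every library, an alternative chosen after the values were seen, gave 0.834 in GIP-GFP and 0.720 (0.696 to 0.744) in Ngn3-TOMATO, against 0.637 (0.622 to 0.653) in Ngn3-negative. The place of GIP-GFP above both other sorts was the same in the 2 versions, while the near equality of Ngn3-TOMATO and Ngn3-negative rested on the genes listed at 0.

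Other genes of replication and mitosis, from lists that hold none of the 33, had lower levels in both reporter-positive sorts too. Of 33 other replication genes measured, 20 were at least 2-fold lower in GIP-GFP and 21 in Ngn3-TOMATO than in Ngn3-negative, against 13.8% and 9.94% of all genes. Their medians were -1.20 and -1.08. Of 40 other mitosis genes, 36 were at least 2-fold lower in GIP-GFP and 38 in Ngn3-TOMATO, beside the same shares of all genes, with medians of -1.59 and -1.39. None of either list was at least 2-fold higher in these comparisons. Mcm10, which helps activate the helicase, stood at 13.0 in GIP-GFP and 18.4 in Ngn3-TOMATO, against 46.5 in Ngn3-negative. Gmnn, geminin, which blocks a second licensing of origins, stood at 26.1 in GIP-GFP and 24.4 in Ngn3-TOMATO, against 67.8 in Ngn3-negative, and the clamp loader gene Rfc2 at 48.0 in GIP-GFP and 40.5 in Ngn3-TOMATO, against 62.2 in Ngn3-negative. Rfc2 was thus much nearer to its Ngn3-negative level than Mcm10 was. Of the other abundant genes of the list, Slbp, which binds histone mRNA, had log2 ratios to Ngn3-negative of -0.75 in GIP-GFP and -0.60 in Ngn3-TOMATO. Dnmt1, the maintenance DNA methyltransferase, had -0.75 and -0.72, and the clamp loader gene Rfc3 had -0.78 and -0.98. Cdc45, a part of the active helicase, was at -1.78 and -1.30. Among abundant mitosis genes, Cdca3 was at -1.47 in GIP-GFP and -1.48 in Ngn3-TOMATO, and the condensin gene Smc4 at -1.16 and -1.18. Cenpa, the centromeric histone, was at -1.29 and -1.28, and Mad2l1 of the spindle checkpoint at -1.67 and -1.57. Ect2, a gene of cytokinesis, stood at 8.82 in GIP-GFP and 11.1 in Ngn3-TOMATO, against 35.5 in Ngn3-negative, the spindle matrix gene Hmmr at 4.47 in GIP-GFP and 5.88 in Ngn3-TOMATO, against 19.7 in Ngn3-negative, and the separase gene Espl1 at 2.03 in GIP-GFP and 3.95 in Ngn3-TOMATO, against 10.9 in Ngn3-negative. Pttg1, securin, stood at 36.5 in GIP-GFP and 27.4 in Ngn3-TOMATO, against 37.7 in Ngn3-negative. Cdc25b, a phosphatase that activates cyclin-dependent kinases, was the mitosis gene highest in Ngn3-TOMATO relative to Ngn3-negative, at 16.3 in GIP-GFP and 33.9 in Ngn3-TOMATO, against 21.2 in Ngn3-negative. Gins2 and Ncapg were listed at 0 in both reporter-positive sorts.

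Between GIP-GFP and Ngn3-TOMATO, the other replication genes had a median log2 ratio of -0.05 over 32 genes, with intervals below 0 for 5 and above 0 for 4. The other mitosis genes had a median of -0.18 over 39, with intervals below 0 for 15 and above 0 for 2. Over all genes these shares were 28.0% below and 39.0% above 0. Espl1 was the lowest member of the mitosis list other than Cdc25b, at -0.71 (-0.95 to -0.46), and Cks2, a cyclin-dependent kinase subunit, was the highest, at 0.85 (0.29 to 1.40).

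The genes that govern entry into the cycle did not share 1 direction. Of 8 G1 cyclins and kinases, 5 were at least 2-fold lower in GIP-GFP and 3 in Ngn3-TOMATO than in Ngn3-negative, against 13.8% and 9.94% of all genes. Ccnd3 was at least 2-fold higher in Ngn3-TOMATO, where 19.2% of all genes were. The D-type cyclins, which start the passage through G1, differed from each other. Ccnd1 stood at 23.9 in GIP-GFP and 28.5 in Ngn3-TOMATO, against 66.0 in Ngn3-negative. Ccnd2 stood at 33.2 in GIP-GFP and 117 in Ngn3-TOMATO, against 92.2 in Ngn3-negative, and Ccnd3 at 34.2 in GIP-GFP and 63.9 in Ngn3-TOMATO, against 21.2 in Ngn3-negative. Ccnd2 was thus lowest in GIP-GFP and highest in Ngn3-TOMATO, and Ccnd3 was lowest in Ngn3-negative. Cdk4, their kinase and the most abundant gene of the list, stood at 159 in GIP-GFP and 159 in Ngn3-TOMATO, against 232 in Ngn3-negative, and Ccne1, the cyclin of the G1 to S transition, at 3.93 in GIP-GFP and 5.18 in Ngn3-TOMATO, against 14.8 in Ngn3-negative.

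Of 20 E2F, DREAM and MYC regulators, 7 were at least 2-fold lower in GIP-GFP and 6 in Ngn3-TOMATO than in Ngn3-negative, against 13.8% and 9.94% of all genes, and none was at least 2-fold higher. Foxm1, the mitotic forkhead factor, stood at 6.56 in GIP-GFP and 8.02 in Ngn3-TOMATO, against 23.1 in Ngn3-negative, and E2f8, a repressor of late S phase, at 8.83 in GIP-GFP and 11.7 in Ngn3-TOMATO, against 34.8 in Ngn3-negative. Their log2 ratios of GIP-GFP to Ngn3-negative were -1.67 (-1.88 to -1.47) and -1.87 (-2.09 to -1.64). E2f4, the main E2F of the DREAM complex in resting cells, stood at 61.8 in GIP-GFP and 54.1 in Ngn3-TOMATO, against 71.2 in Ngn3-negative, and Rb1, the retinoblastoma protein gene, at 45.6 in GIP-GFP and 48.4 in Ngn3-TOMATO, against 52.5 in Ngn3-negative, so that both were within 2-fold across the sorts. Myc, a driver of crypt growth, stood at 19.9 in GIP-GFP and 32.7 in Ngn3-TOMATO, against 66.4 in Ngn3-negative.

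Genes that restrain the cycle went both ways. Of 12 CDK inhibitor and antiproliferative genes measured, 4 exceeded Ngn3-negative by 2-fold or more in GIP-GFP, as 21.1% of all genes did, and 4 lay below it by as much, as 13.8% did. In Ngn3-TOMATO 4 were higher and 1 was lower by this measure, beside 19.2% and 9.94% of all genes. Cdkn1c, which encodes the inhibitor p57, had the highest ratio of the list in both, and stood at 384 in GIP-GFP and 99.6 in Ngn3-TOMATO, against 7.85 in Ngn3-negative. Its log2 ratio was 5.44 (5.23 to 5.65) for GIP-GFP over Ngn3-negative, 3.51 (3.29 to 3.72) for Ngn3-TOMATO over Ngn3-negative and 1.94 (1.85 to 2.02) for GIP-GFP over Ngn3-TOMATO. Cdkn1a, which encodes p21, stood at 744 in GIP-GFP and 524 in Ngn3-TOMATO, against 168 in Ngn3-negative, and the antiproliferative gene Btg2 at 435 in GIP-GFP and 705 in Ngn3-TOMATO, against 95.7 in Ngn3-negative. Cdkn1c and Cdkn1a were thus highest in GIP-GFP, and Btg2 was highest in Ngn3-TOMATO. Klf4, a factor of differentiated epithelium, stood at 30.5 in GIP-GFP and 232 in Ngn3-TOMATO, against 101 in Ngn3-negative.

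**Figure D4:**
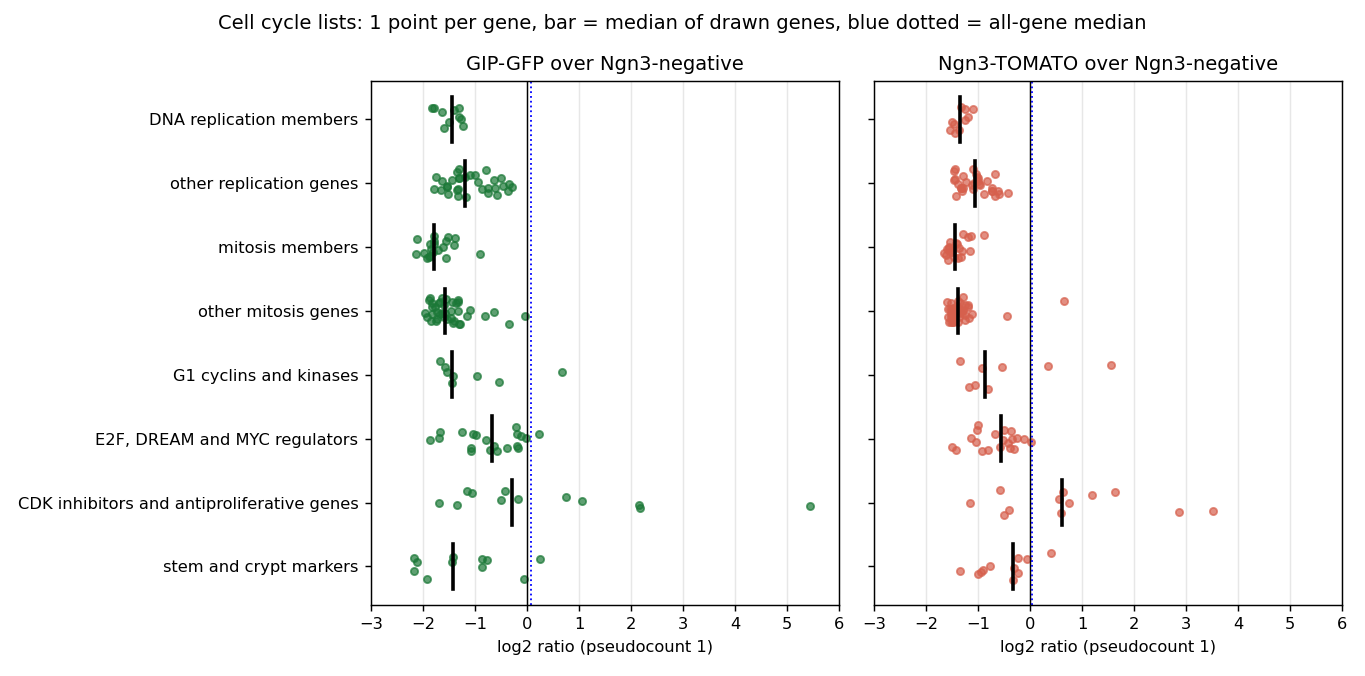
Log2 ratio over Ngn3-negative for the genes of 8 lists, GIP-GFP at left and Ngn3-TOMATO at right, 1 point per gene not listed at 0; black bars are medians of the drawn genes and the blue dotted line is the median of all genes. Replication and mitosis genes lie left of 0, apart from Cdc25b in the Ngn3-TOMATO panel, at 0.66. The CDK inhibitor list spreads to both sides, with Cdkn1c farthest right at 5.44 and 3.51.

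Markers of other cells also differed between the sorts, and their part in the results was not tested. Stem and crypt markers (11 of 11 detected in each library) summed to 907 in GIP-GFP and 1403 in Ngn3-TOMATO, against 3215 in Ngn3-negative, and most of each sum was Olfm4, at 606 in GIP-GFP and 1035 in Ngn3-TOMATO, against 2645 in Ngn3-negative. Lgr5, the stem cell receptor, stood at 3.96 in GIP-GFP and 12.1 in Ngn3-TOMATO, against 21.3 in Ngn3-negative, whereas Ephb2 was highest in GIP-GFP, at 41.3 in GIP-GFP and 27.1 in Ngn3-TOMATO, against 34.5 in Ngn3-negative. The median log2 ratio of the 11 was -1.43 for GIP-GFP and -0.34 for Ngn3-TOMATO over Ngn3-negative, beside -1.79 and -1.43 for the cell cycle genes. Of 7 markers of enteroendocrine progenitors, all but Insm1 were highest in Ngn3-TOMATO, and Neurog3 itself stood at 4.46 in GIP-GFP and 24.0 in Ngn3-TOMATO, against 13.8 in Ngn3-negative. Enterocyte markers (11 of 11 detected) had medians of -1.96 and -2.26 in the same comparisons. Goblet markers had medians of -2.09 in GIP-GFP and 2.34 in Ngn3-TOMATO, and Paneth markers of -1.17 and 2.44, so Ngn3-TOMATO held more transcripts of these mature secretory cells. The 10 lymphocyte markers with a value summed to 489.6 in GIP-GFP and 92.1 in Ngn3-TOMATO, against 216 in Ngn3-negative. The 5 erythroid markers summed to 41.0 in GIP-GFP and 66.3 in Ngn3-TOMATO, against 253 in Ngn3-negative. The sums of the cell cycle genes and of the stem and crypt markers had the same order of sorts. The erythroid medians were -2.72 in GIP-GFP and -1.99 in Ngn3-TOMATO over Ngn3-negative. Of the 5, Alas2 was instead highest in GIP-GFP, at 6.51 in GIP-GFP and 1.72 in Ngn3-TOMATO, against 3.72 in Ngn3-negative. The 6 tuft markers summed to 21.1 in GIP-GFP and 153 in Ngn3-TOMATO, against 74.8 in Ngn3-negative, and the 5 myeloid markers to 15.6 in GIP-GFP and 12.1 in Ngn3-TOMATO, against 14.3 in Ngn3-negative. Markers of B and plasma cells summed to at most 6.67 in any library. The 6 stromal markers summed to 147 in GIP-GFP and 307 in Ngn3-TOMATO, against 8.61 in Ngn3-negative, nearly all of it from Vim, while Col1a1, Col1a2, Col3a1 and Pdgfra reached at most 0.384, and Col1a1 was listed at 0 in GIP-GFP and Pdgfra in both reporter-positive sorts.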

How the data were processed

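The authors deposited, per the file headers, 1 line per UCSC transcript model (59120 in each library) with its length in bases, its coverage (mean read depth per base, a signal), its FPKM and the limits of the FPKM. Per the submitters' processing notes, the reads went through FastQC, TopHat 1.5.0 and Cufflinks on mm10; no Cufflinks version is stated. The deposited FPKM sums are far larger than that unit gives, so the library term is unknown, and ratios between libraries are used as deposited. Gene symbols were assigned here, by comparison with GENCODE M21 without regard to strand: by ends within 10 bases, by span overlap of at least 50% and by length, and 51400 received a symbol. Mitochondrial transcripts, those under 200 bases and those flagged as holding too many reads were left out, and the FPKM of the rest were added up for each symbol and then put on a scale where library totals average 1000000, with the same divisor in every library. Genes at 1 scaled FPKM or more in either library of a comparison were measured. Limits were read as 2 standard errors and combined over transcripts as if independent, and the ratio calculation was tested on simulated data. The members and lists were chosen with earlier results of these data known. All 33 members are named. Of each other list, most names were taken from at most 5 genes of highest mean level and at most 3 of largest ratio in a comparison, and not all of these are printed. Marker lists are given mainly by their sums and medians, and Ephb2, Gapdh, the collagen genes and Pdgfra were named after their values were seen. Python 3.11.15, pandas 2.3.3, numpy 2.4.6 and matplotlib 3.10.9 were used.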

Additional observations from a re-analysis of the deposited data

How the results depend on the processing

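No paired analysis was possible because each group is 1 library. Other pseudocounts, filters, scalings, transcript sums and matching rules were tried, and the medians of the replication, mitosis and all members kept their sign under all of them. With a pseudocount of 5, the medians for GIP-GFP over Ngn3-negative were -1.30 (replication), -1.53 (mitosis) and -1.40 (all members), and those for Ngn3-TOMATO over Ngn3-negative -1.21, -1.16 and -1.18. With equal library totals they were -2.01 (mitosis) and -1.98 (all) for GIP-GFP, and -1.60 (replication), -1.68 (mitosis) and -1.65 (all) for Ngn3-TOMATO. Equal totals moved the median of all genes to -0.13 for GIP-GFP and -0.20 for Ngn3-TOMATO over Ngn3-negative, against 0.07 and 0.03 as deposited. Leaving the most abundant genes out of the totals gave -1.23 for replication in Ngn3-TOMATO, with an all-gene median of 0.17, and 0.19 in GIP-GFP. Under the settings that keep all 33 members, 30 to 33 were at least 2-fold lower in GIP-GFP and 27 to 33 in Ngn3-TOMATO than in Ngn3-negative. The share of all genes at least 2-fold lower ran from 9.53% to 17.8% in GIP-GFP under those settings. In Ngn3-TOMATO it ran from 6.72% to 14.6%. Without members listed at 0, 0 of 30 members were at least 2-fold lower in GIP-GFP than in Ngn3-TOMATO, against 8.77% of all genes. The ratio of summed replication to summed mitosis level in GIP-GFP was 0.901 with the most abundant transcript only, and 0.720 in Ngn3-TOMATO and 0.637 in Ngn3-negative without members listed at 0 in any library. With the most abundant transcript, Mcm5 had a log2 ratio of 0.70 for GIP-GFP over Ngn3-TOMATO, because the reads were split differently among its transcripts. A pseudocount of 5 lowered the genes at least 2-fold lower in GIP-GFP than in Ngn3-TOMATO to 670 from 1202, those at least 2-fold higher to 603 from 1102, and those at least 2-fold higher than Ngn3-negative to 1782 from 2829 in GIP-GFP and to 1494 from 2579 in Ngn3-TOMATO. Depth was least in GIP-GFP.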
